A study of Mus musculus with 366 samples.

Results

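The macrophage marker genes are 33 genes whose products define or serve macrophages, the phagocytes that take up lipoprotein in an atherosclerotic artery. Each member was found by its gene symbol on the array, and where a gene had several probe sets (the groups of short probes that report 1 transcript) the one with the highest mean was read. A probe set was found for 32 of the 33 members among 17097 genes with 1 symbol. Ncf1, which encodes a cytosolic subunit of the phagocyte oxidase, was not analysed here. The samples were aortas of female F1 mice of the Ath-HMDP, each the offspring of 1 inbred strain and C57BL/6J mice that carried the ApoE-Leiden and CETP transgenes. All mice therefore shared 1 set of C57BL/6J chromosomes and both human transgenes, and all were 24 weeks old after 8 weeks of chow and 16 weeks of Western diet, so no group without the transgenes or the diet was compared. The table held 366 arrays of 101 strains, and tests used the 360 arrays of 95 strains with at least 2 arrays: 31 classical strains and, as recombinant inbred strains, 4 BXH, 8 CXB, 19 AXB/BXA and 33 BXD. Per the study's methods the tissue was aorta down to the middle of the abdomen, freed of outer fat, with 1 array per mouse. A strain below stands for the F1 of that strain, and the C57BL/6J group is the transgenic cross to C57BL/6J itself.

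Macrophages of the arterial wall arise from embryonic precursors and from blood monocytes, and depend on signalling through the receptor for colony stimulating factor 1 (Csf1r). The transcription factor PU.1 (Spi1) sets up their gene programme. In a healthy artery, resident macrophages of the adventitia carry the mannose receptor (Mrc1), the haemoglobin scavenger receptor (Cd163) and the folate receptor beta (Folr2), while macrophages that load cholesterol in the intima become foam cells. Several members, such as the phosphatase Ptprc (CD45) and coronin (Coro1a), are made by all leukocytes.

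The members sat among other tissue on the arrays. Smooth muscle markers, which define the aortic media, had a mean log2 signal over 10 genes of 5.92 to 10.3 across the arrays (median 8.52), with a mean of 11.6 for Acta2 and 8.86 for Myh11. Fat markers were present on every array (mean over 6 genes 10.3 to 11.4, with a mean of 12.9 for the brown fat gene Ucp1), and striated muscle markers ran from 3.69 to 12.4. Arrays far above the rest (over 5 median absolute deviations above the median) numbered 8 for hepatocyte markers and 7 for T and B lymphocyte markers, and results without them are given where they differ. 1 array of the reference strain stood apart and bears on each comparison with it: C57BL/6J replicate 1 had a mean over the members of 7.20, against 5.99 to 6.37 in the other 5.

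Some members are neighbours in the genome. C1qa, C1qb and C1qc lie side by side on chromosome 4, and Fcgr2b, Fcgr3 and Fcer1g lie close together on chromosome 1. Promoters are shown for 4 members because they stand for the groups that the levels separate: C1qb and C1qc, 2 of the 3 most closely correlated genes, Mrc1, a resident receptor, and Cd163, the member least like the rest. The sequences are those of RefSeq on GRCm38.p6, from 250 bases before to 50 bases after the start of the gene, written 5′ to 3′ on the strand of the gene. They cover chr4:136886151-136886450 (minus strand) for C1qb, chr4:136892865-136893164 (minus strand) for C1qc, chr2:14229164-14229463 (plus strand) for Mrc1 and chr6:124304401-124304700 (plus strand) for Cd163. Capitals mark GAGGAA, a sequence that PU.1 can bind, or its reverse complement TTCCTC. Other sequences that PU.1 may bind are not marked or counted as a match.
C1qb: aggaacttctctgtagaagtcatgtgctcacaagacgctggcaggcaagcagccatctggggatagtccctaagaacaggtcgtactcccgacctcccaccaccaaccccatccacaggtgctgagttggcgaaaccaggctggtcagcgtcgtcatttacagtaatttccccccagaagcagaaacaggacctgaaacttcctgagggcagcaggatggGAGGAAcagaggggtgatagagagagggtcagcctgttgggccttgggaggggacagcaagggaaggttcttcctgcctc
C1qc: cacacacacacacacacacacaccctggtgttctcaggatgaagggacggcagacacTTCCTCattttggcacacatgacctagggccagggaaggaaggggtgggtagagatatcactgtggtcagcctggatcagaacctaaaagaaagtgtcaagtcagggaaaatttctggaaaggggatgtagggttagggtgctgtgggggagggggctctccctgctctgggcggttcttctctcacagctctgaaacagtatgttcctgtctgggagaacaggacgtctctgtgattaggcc
Mrc1: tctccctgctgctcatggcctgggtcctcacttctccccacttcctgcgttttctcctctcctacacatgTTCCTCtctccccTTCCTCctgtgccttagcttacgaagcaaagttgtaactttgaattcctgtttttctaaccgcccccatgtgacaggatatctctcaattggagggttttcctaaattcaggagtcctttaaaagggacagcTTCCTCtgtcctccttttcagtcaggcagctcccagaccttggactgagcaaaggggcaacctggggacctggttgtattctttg
Cd163: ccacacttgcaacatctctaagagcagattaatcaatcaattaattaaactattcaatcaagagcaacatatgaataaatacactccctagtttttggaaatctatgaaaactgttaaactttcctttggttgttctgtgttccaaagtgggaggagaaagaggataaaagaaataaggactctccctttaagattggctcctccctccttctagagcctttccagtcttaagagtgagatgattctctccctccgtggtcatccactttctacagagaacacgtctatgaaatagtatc

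The C1qb and C1qc promoters each held 1 match, that of Mrc1 held 3 and that of Cd163 none. Members close to the mean of the others across strains were found with and without a match. Fcer1g (r 0.893) and Ly86 (r 0.892) had none, and Ctss (r 0.915) had 2. Whether matches go with the levels was not tested. Of the 32 RefSeq promoters found for 25 members, 16 held the 6 letters on either strand (50%), against 28.3% of all 32851 promoters of the same length. The longer GAGGAAGT, which contains the first, was in 3 of the 32 (9.38%) and in 3.2% of all. Clec7a and Fcgr3 each had 2 overlapping windows that share 1 match. Counted by gene, 14 of the 25 members had a match to the 6 letters, and the share by gene over all genes is not given here. No promoter was found for Adgre1, C1qa, Cd14, Csf1r, Itgb2, Spi1 and Tyrobp. A match describes letters in the window and shows no binding.

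Most macrophage markers differed among strains, as did most genes of their level. By limma's F test over 95 strains, 31 of the 32 members passed an adjusted p of 0.05, where 77.0% of all 45141 probe sets passed. In a fit on the probe sets above the median level alone, 29 of the 30 members there and 95.8% of all passed. The range between the lowest and the highest strain mean had a median of 1.71 on the log2 scale (3.26-fold) and ran from 0.61 for Spi1 to 2.68 for Coro1a. The ends are extremes picked from many means, so part of each range follows from that choice. The range to be had by chance alone was not worked out. The share of variance among strains (the intraclass correlation, in which the rest lies between mice of a strain) had a median of 22.5% over the members, 17.9% over all probe sets and 29.5% over probe sets above the median level. Of the 32 members, 24 lay above the median of all probe sets, and 30 had a mean level above the median level of 3.28. In tissue RNA, more macrophages and more RNA per macrophage cannot be told apart. Arrays of a strain are individual mice, so the p-values measure the spread between mice, and since the labels give no batch, strain and batch cannot be told apart.

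**Figure D1:**
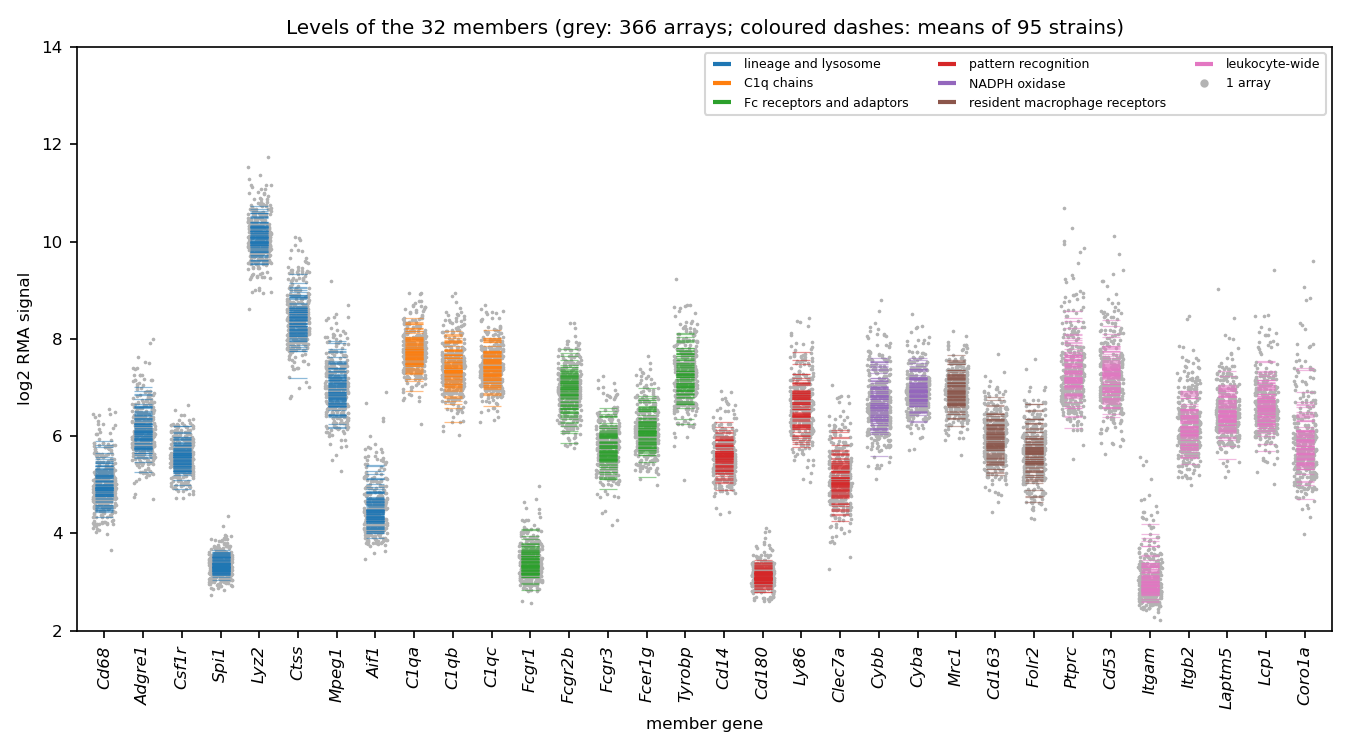
Log2 RMA signal (y axis) of the 32 members (x axis) on 366 arrays (grey points) with the means of 95 strains (dashes, coloured by group of members). Lyz2 lies highest, between 8.62 and 11.7, and Spi1, Fcgr1, Cd180 and Itgam lie near the median of all probe sets, 3.28.

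The Fc receptors and their adaptors held the most strain-dependent member. Fcgr2b, the inhibitory receptor for IgG, ran over the arrays from 5.74 through a median of 6.92 to 8.33, and strain accounted for 45.1% of its variance (F test, adjusted p = 6.95e-19). Its lowest strain was CE/J, with arrays at 5.74 and 5.95, and its highest was BXA7/PgnJ, with arrays at 7.94, 7.81, 7.93, 7.78 and 7.50. These groups did not overlap, and their means (5.85 and 7.80) differed 3.85-fold. They were picked as the lowest and highest strain means, so the gap and the fold follow in part from that choice. The activating receptor Fcgr3 ran from 4.91 in A/J to 6.57 in FVB/NJ as strain means (27.1% of variance), and the shared signalling chains Fcer1g (28.2%) and Tyrobp (28.6%) were each lowest in A/J and highest in BXA7/PgnJ. Fcgr1, the high-affinity receptor, was dim (median array 3.37, strain means from 2.83 in BXD44/RwwJ to 4.09 in BXA7/PgnJ) but passed the test (23.7%, adjusted p = 1.13e-06). Fcgr2b had 4 probe sets, with shares of 31.6% to 45.1% and correlations with the chosen one of 0.867 to 0.951 across strains. By their names some of the 4 can bind related transcripts, so part of their signal may come from other Fc receptor genes.

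The 3 chains of C1q, which opens the classical complement pathway and is made largely by macrophages, had similar strain shares of 28.9% (C1qa), 33.1% (C1qb) and 31.6% (C1qc). C1qb was lowest in CE/J (arrays at 6.30 and 6.29) and highest in BXA7/PgnJ (8.12, 8.33, 8.42, 8.17 and 7.75). C1qa and C1qc were lowest in A/J and highest in BXA7/PgnJ, with strain means from 6.93 to 8.42 and from 6.61 to 8.17. All arrays of the low strains lay below all arrays of BXA7/PgnJ for each chain, but these strains were picked as extremes of the same values.

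Receptors of resident macrophages had the highest group median, 35.1%. Folr2 ran over the arrays from 4.30 through 5.66 to 7.58, with 36.9% of variance among strains (adjusted p = 2.25e-13). A/J was lowest for Folr2, with arrays at 4.62, 4.68 and 4.66, and FVB/NJ was highest, with arrays at 6.67, 7.58, 6.61 and 5.82. Their means differed 4.04-fold without overlap, again between extremes picked from the same values. Cd163 ran from 5.20 in A/J (arrays 5.50, 4.78 and 5.32) to 6.80 in BXD51/RwwJ (6.91, 6.58 and 6.92), with 35.1%. Mrc1 had 34.2% and ran from 6.21 in BXD48/RwwJ to 7.67 in AXB10/PgnJ, the latter a mean of only 2 arrays at 7.28 and 8.06.

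Lineage and lysosomal members had a group median of 21.6%. Csf1r was the most strain-dependent of them (29.9%, CE/J 4.92 to BXA7/PgnJ 6.21). Mpeg1, which encodes the pore-forming perforin-2, followed with 27.0% and strain means from 6.16 in LP/J to 7.96 in BXD66/RwwJ. The lysosomal glycoprotein Cd68 had 25.9% (LP/J 4.34 to BXA7/PgnJ 5.89) and Adgre1, the F4/80 antigen, 23.4% (A/J 5.25 to BXA7/PgnJ 7.01). Cathepsin S (Ctss) ran from 7.20 in LP/J to 9.33 in CXB3/ByJ, and the actin-binding Aif1 (Iba1) from 3.90 in C57BLKS/J to 5.41 in BXD66/RwwJ. The BXD66/RwwJ mean of Aif1 rested on 1 of 3 arrays, at 4.77, 6.92 and 4.54. Lyz2, which encodes lysozyme, was the brightest member and varied mostly between mice of a strain (10% among strains, adjusted p = 0.0188), with strain means from 9.54 in LP/J to 10.7 in BXD38/TyJ. Spi1 was the member that did not pass (6.11%, adjusted p = 0.102), with strain means from 3.03 in BXD44/RwwJ to 3.65 in AKR/J, near the median of all probe sets. It passed with array weights (adjusted p = 0.0101) and without the mice numbered 3 in each strain (0.0424).

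Among the pattern recognition members, Ly86 (MD-1), which partners Cd180 on the cell surface, had a strain share of 27.2% and ran from 5.77 in KK/HlJ to 7.74 in BXA7/PgnJ. Clec7a (dectin-1, a receptor for fungal glucans) had 20.5% and ran from 4.26 in 129X1/SvJ to 6.12 in BXA7/PgnJ. Cd14, the co-receptor for lipopolysaccharide, had 19.9% (CE/J 4.90 to FVB/NJ 6.28), and the dim Cd180 (median array 3.09) had 9.84% (BXD18/TyJ 2.79 to BXH19/TyJ 3.45). The oxidase subunits Cybb and Cyba, which together form the membrane core of the enzyme, had 19.8% and 20.3%, with Cybb running from 5.59 in A/J to 7.60 in BXD38/TyJ, a strain with 2 arrays at 7.11 and 8.09, and Cyba from 6.29 in LP/J to 7.61 in FVB/NJ. The leukocyte-wide members had the lowest group median, 13.9%, and some of the widest ranges. Ptprc had strain means from 6.17 in BXD18/TyJ to 8.58 in CXB7/ByJ but a within-strain SD of 0.673, so strain accounted for 13.9% of its variance. Coro1a ranged from 4.71 in BXD18/TyJ to 7.40 in CXB3/ByJ (within-strain SD 0.705, 13.4%). Of the others, the tetraspanin Cd53 was lowest in BXA14/PgnJ (6.39) and highest in CXB3/ByJ (8.38), Itgb2 in A/J (5.42) and BXA7/PgnJ (6.93), Itgam in BXD87/RwwJ (2.58) and C58/J (4.19), Laptm5 in C57BLKS/J (5.52) and AKR/J (7.33), and Lcp1 in LP/J (5.70) and AKR/J (7.55). Itgam is counted in this group, but its Pearson r across strains was highest with Cybb (0.717) and Adgre1 (0.702). With the rest of the group it ran from 0.295 (Lcp1) to 0.696 (Itgb2), so the group name describes Itgam poorly. Lyz2, Cd180, Ptprc, Cd53, Itgam, Itgb2 and Coro1a missed the threshold without at least 1 of the 8 replicate numbers.

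For 6 of the 7 leukocyte-wide members the highest array was also high in lymphocyte markers, and for Itgam it was not (BXD32/TyJ replicate 4 at 5.57, with a T list of 3.37 and a B list of 4.52). AKR/J replicate 1 had the highest value of all arrays for Ptprc (10.7), Cd53 (10.1), Itgb2 (8.46), Laptm5 (9.03), Lcp1 (9.41) and Coro1a (9.60), and also for Lyz2 (11.7), Ly86 (8.43) and Cyba (8.52). The same array had a mean over the T and B lymphocyte markers of 6.21, the highest of the 7 arrays named above. Its mean over the T list was 5.98 and over the B list 6.47, where the medians of all arrays were 3.40 and 4.0. The other AKR/J mice had Ptprc values of 6.94, 6.63 and 9.22, around a median array of 7.20. Without the 7 arrays high in lymphocyte markers, the strain share of Ptprc was 18.1%, of Cd53 19.6% and of Coro1a 17.2%, and the median over the members was 24.7%. The F test then also called 31 members, and the part of lymphocytes in the rest was not tested.

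The members varied together. Over the 496 pairs, the median Pearson r was 0.604 across the 95 strain means and 0.594 within strains (360 arrays, each as its deviation from the strain mean). The median over all pairs of the 17097 genes was 0.0096 and 0.0052. All 496 pairs had r above 0 within strains, and 494 had across strains. The lowest value, -0.00476, was that of Cd163 with Lcp1, which encodes the actin bundler L-plastin. A first principal component held 60.7% of the members' variance across strains and 60.1% within, and a second held 9.28% and 10.3%. These r describe points that share tissue composition and RNA from the same mice, so no test is given. The pattern of pairs was alike on both levels, with a correlation of 0.889 between the r across and the r within. Strain means of few arrays also carry the variation between mice, so part of this likeness is built in.

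**Figure D2:**
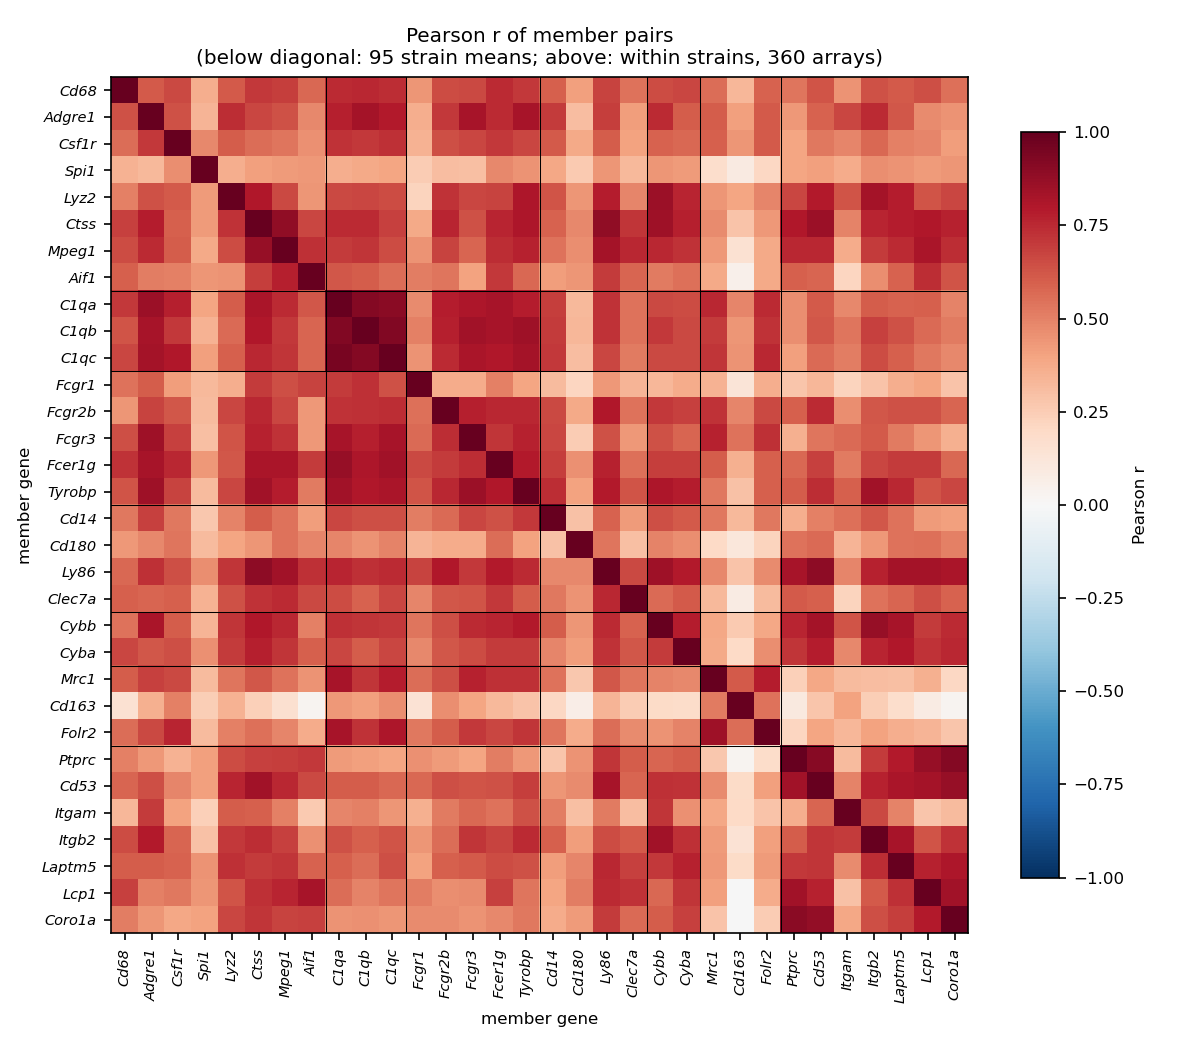
Pearson r between each pair of the 32 members (both axes), with strain means below the diagonal (95 strains) and deviations within strains above it (360 arrays). Lines separate the groups of members. The C1q chains form a dark block (r of 0.921 to 0.951 across strains) and the rows of Cd163, Spi1 and Cd180 are pale.

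The C1q chains were the tightest group, with r of 0.951 (C1qa and C1qc), 0.925 (C1qa and C1qb) and 0.921 (C1qb and C1qc) across strains and 0.902 to 0.924 within. Ptprc and Coro1a came next (0.901 across, 0.916 within), then Ctss and Ly86 (0.893 and 0.889). Mrc1 and Folr2 had 0.851 and 0.787, and both were less close to Cd163 (0.520 and 0.561 across). Partners that act as 1 complex were not always the closest. Cybb and Cyba had 0.703 across and 0.784 within, Itgam and Itgb2, the chains of the integrin Mac-1, had 0.696 and 0.661, and Ly86 and the dim Cd180 had 0.481 and 0.535. The member closest to the mean of the others was Ctss (0.915 across strains), with C1qa (0.894), Fcer1g (0.893) and Ly86 (0.892) after it. The lowest were Cd163 (0.331), Spi1 (0.473) and Cd180 (0.539), of which Spi1 and Cd180 lay near the median level of all probe sets and Cd163, with a mean of 5.93, did not.

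The members spread between a resident and a lymphoid side. Mrc1 and Folr2 had r of 0.856 and 0.842 across strains with a list of 20 other resident macrophage genes (such as F13a1, Igf1, Clec10a and Mgl2), and 0.0188 and 0.0304 with the B lymphocyte list. The resident receptor Cd163 had only 0.504 with the resident list and -0.0286 with the B list. Ptprc and Coro1a had the opposite order, with 0.230 and 0.280 for the resident list and 0.795 and 0.795 for the B lymphocyte list. Cd53, Lcp1 and Laptm5 had the order of Ptprc, with 0.421, 0.441 and 0.506 for the resident list and 0.750, 0.623 and 0.591 for the B list. Itgb2 (0.557 and 0.505) and Itgam (0.403 and 0.388) did not. The r between the 3 resident receptors and all 7 leukocyte-wide members had a median of 0.283 across strains and 0.297 within, over 21 pairs. C1qa, C1qc, Fcgr3 and Csf1r lay on the resident side (0.750 to 0.776 with the resident list, 0.197 to 0.282 with the B list). Lyz2, Ctss, Cybb, Cyba and Ly86 lay between, at 0.533 to 0.611 and 0.477 to 0.564. Without the 7 arrays high in lymphocyte markers, r with the B list was 0.747 for Ptprc and 0.751 for Coro1a, and 0.149 for Mrc1 and 0.103 for Folr2.

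**Figure D3:**
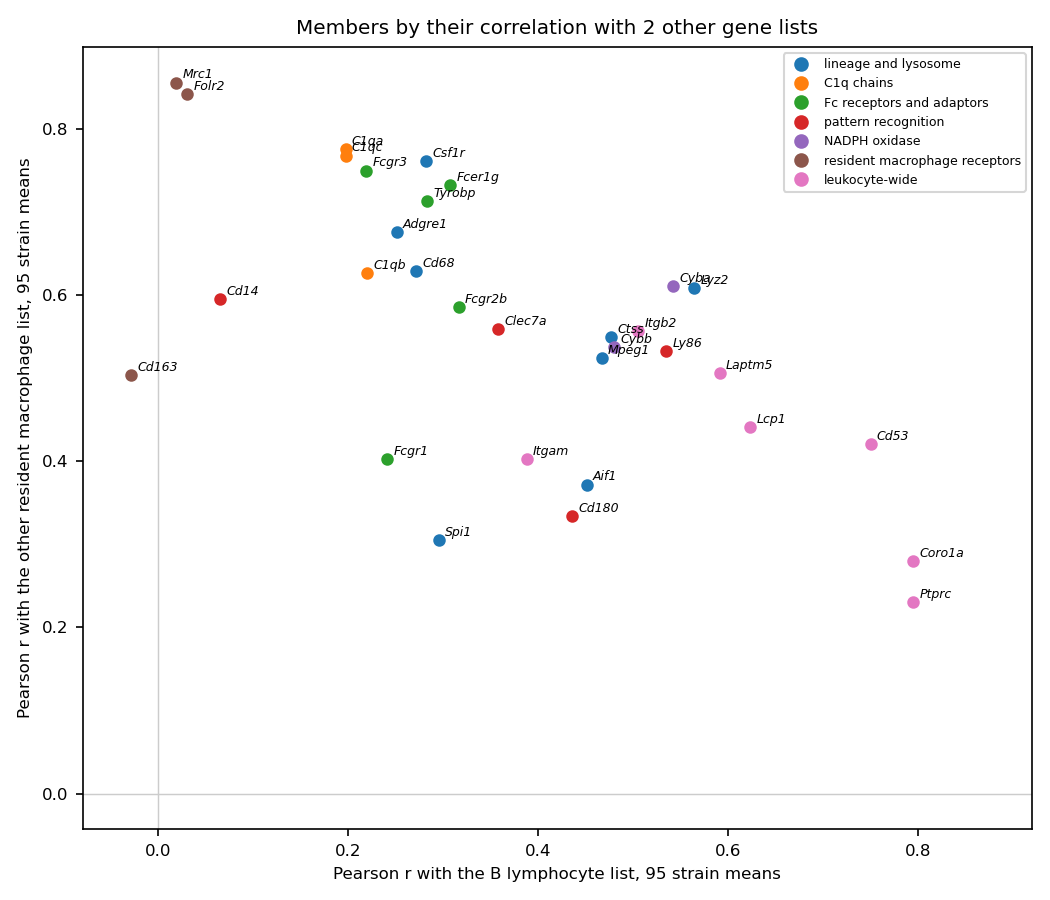
Pearson r over 95 strain means of each member with the mean of the B lymphocyte list (x axis) and of the list of other resident macrophage genes (y axis), coloured by group of members. Mrc1 and Folr2 lie at upper left (0.856 and 0.842 on the y axis) and Ptprc and Coro1a at lower right (0.795 on the x axis).

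Other genes of macrophage biology followed the members to different degrees. The mean of the members had r of 0.882 across and 0.890 within strains with a list of other phagocyte receptors and Fc pathway genes, 0.764 and 0.771 with dendritic cell and MHC class II genes, 0.731 and 0.751 with the other resident macrophage genes and 0.699 and 0.712 with monocyte recruitment genes. It was lower for foam cell and lesion genes (0.567 and 0.431) and for the colony stimulating factor axis (0.331 and 0.383). The genes of these lists varied little together, with a median pairwise r across strains of 0.0601 and 0.129. The lists named before them had 0.194 to 0.315, so each list mean can join unlike genes. Lymphocyte lists stood at 0.433 and 0.528 for T cells and 0.485 and 0.650 for B cells, and mast cells at 0.418 and 0.503. Spearman's rho across strains was 0.881, 0.771, 0.702, 0.785, 0.534 and 0.325 for the first 6 lists in this order. The smooth muscle list ran the other way (r -0.384 across, -0.203 within, rho -0.358, and -0.341 without the 2 strains farthest from the median of the members), the endothelial list had -0.259 and -0.151, and the fat list 0.108 and 0.00847. These r share arrays, and RMA sets all genes of an array on 1 scale.

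The strain F test called 17 of 17 measured monocyte recruitment genes, 20 of 20 other resident macrophage genes and 21 of 23 foam cell genes. It called 11 of 13 genes of the colony stimulating factor axis and 15 of 23 other phagocyte receptor genes, beside the 77.0% of all probe sets. Each gene was read from its highest probe set, and the share among probe sets above the median level, given earlier, is higher. Against that share the counts show no clear excess. The most strain-dependent genes of these lists were the chemokines Ccl7 (51.0%), Cxcl12 (41.7%) and Ccl2 (41.2%) and the monocyte and endothelial antigen Ly6c1 (43.7%) for recruitment, and Csf2rb (46.0%), Zeb2 (44.1%), Cebpb (41.3%) and Csf1 (39.3%) for the growth factor axis. Csf1, the ligand of Csf1r, had r of 0.144 across strains with the mean of the members. Among resident genes F13a1 (41.3%), Igf1 (40.6%), Clec10a (40.6%) and Mgl2 (39.5%) led, among foam cell genes Fabp4 (45.3%), Apoe (44.2%), Lipa (41.5%) and Ctsb (38.0%), and among phagocyte receptors Mertk (42.4%), Fcgr4 (35.1%), Lilrb4a (34.3%) and Tlr4 (32.7%). Of these, Lilrb4a (0.792), Clec10a (0.638) and Fcgr4 (0.613) were the closest to the mean of the members across strains, and Mertk, a receptor for the uptake of dying cells, had r of -0.325.

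Over all genes outside the list, the median r with the mean of the members was 0.0431 across and 0.0116 within strains, and the 99th percentile was 0.513 and 0.557. The 10 highest across 95 strains were Cotl1 (0.859), Nckap1l (0.859), Cfp (0.833), Evi2a (0.817), Tnfaip8l2 (0.813), Alox5ap (0.810), H2-DMb2 (0.803), Rgs10 (0.798), Lilrb4a (0.792) and Ccl9 (0.787). Cotl1 encodes an actin-binding protein, Nckap1l a leukocyte subunit of the WAVE actin complex, Cfp the complement factor properdin and Alox5ap the protein that hands arachidonic acid to 5-lipoxygenase. Within strains 7 of these were again among the 10 highest, joined by Ctsc (0.853), which encodes cathepsin C, Ncf4 (0.802), a cytosolic oxidase subunit, and Pld4 (0.802).

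The mean over the 32 members ranked the strains. It ran from 5.57 in A/J to 6.86 in BXA7/PgnJ, a 2.46-fold range around a median strain of 6.15, with 22.7% of its variance among strains and a within-strain SD of 0.334. A/J had arrays at 5.44, 5.80 and 5.46, LP/J at 5.26, 5.95, 5.58 and 5.66, and CE/J at 5.75 and 5.71. A/J was among the 10 lowest strains for 26 of the 32 members, LP/J for 27 and BXD18/TyJ, whose 2 arrays differed (5.17 and 6.21), for 22. At the upper end, BXA7/PgnJ had arrays at 6.92, 6.90, 7.0, 6.96 and 6.53 and was among the 10 highest for 28 members. CXB3/ByJ (6.49, 6.90, 7.06 and 6.69) and BXD66/RwwJ (6.40, 7.31 and 6.43) followed, each among the 10 highest for 24. The 5 arrays of BXA7/PgnJ lay above all arrays of A/J, LP/J and CE/J. These strains were picked by the mean of members that varied together, so the counts and the gap follow in part from that choice. The same counts over all genes are not given here. Neighbours in the order lay closer together than the within-strain SD, which exceeded the SD of all strain means (0.255).

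**Figure D4:**
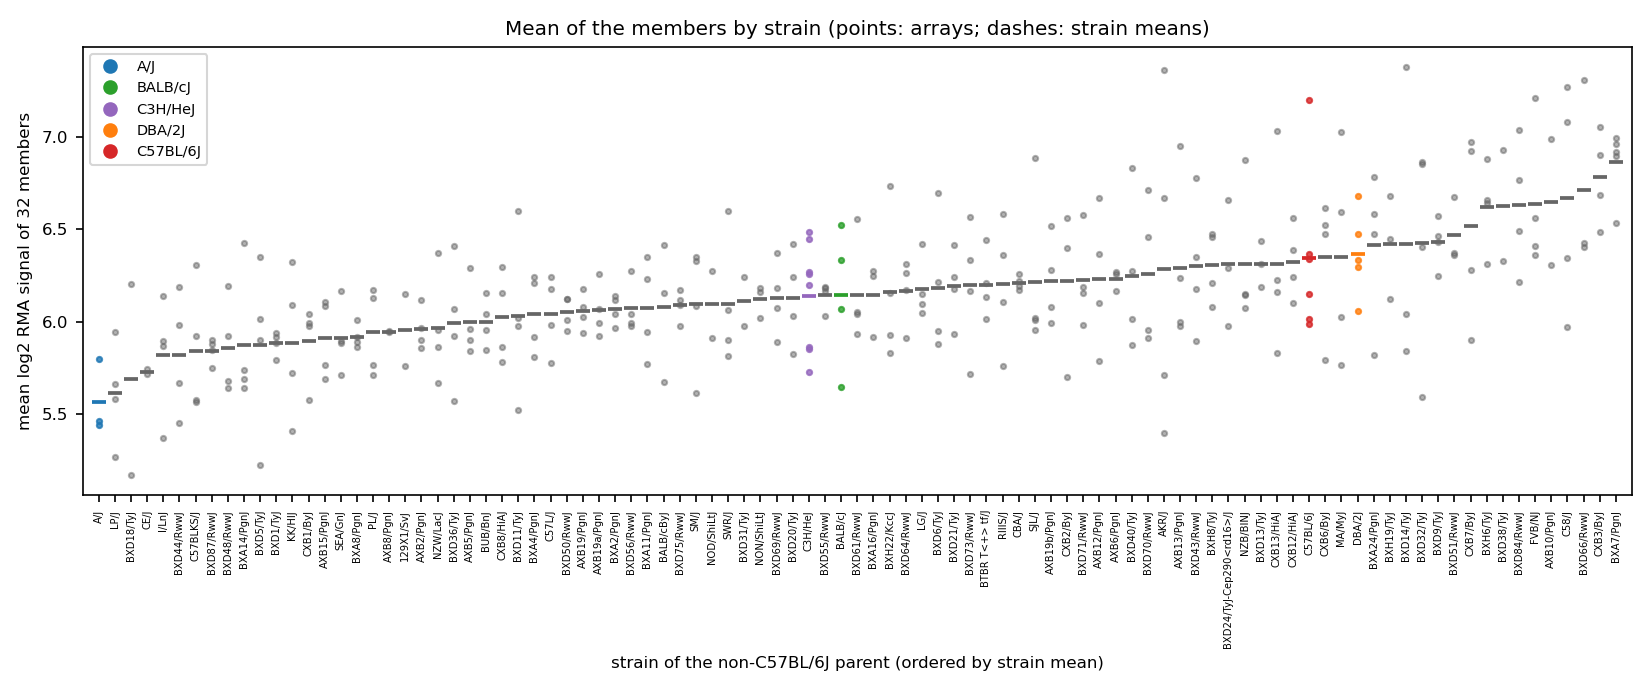
Mean log2 RMA signal over the 32 members (y axis) for each of 95 strains, ordered by strain mean (x axis), with arrays as points and strain means as dashes. The means run from 5.57 in A/J to 6.86 in BXA7/PgnJ, and 1 C57BL/6J array at 7.20 lies above the other 5 (5.99 to 6.37).

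Some members left the common pattern in single strains. For each of the 32 members the means of 95 strains were fitted by a line on the mean of the other members. Of all pairs of member and strain, 18 lay over 3 residual SDs from the line. Among so many pairs some pass such a bound by chance, and the share over all genes is not given here. The pairs below are described because their values were seen. Ctss in LP/J had arrays at 7.22, 7.64, 7.12 and 6.82 and a mean 0.55 below the line, although LP/J was low for most members. Laptm5, a lysosomal protein of blood cells, was lowest in C57BLKS/J (5.38, 5.28, 5.76 and 5.67, 0.68 below the line), and its second probe set was also lowest there, with a mean of 3.33 against a median strain of 4.10. LG/J combined a high Cd68 (5.37, 5.65, 5.80 and 6.25 against a median strain of 4.94) with a low Csf1r (5.17, 4.98, 5.21 and 5.0 against 5.57). Mpeg1 was low in CXB8/HiAJ (6.00, 6.51, 6.14 and 6.06 against 6.94). Each of these arrays lay on the same side of the median strain. Fcgr1 was high in NZB/BlNJ (4.04, 4.26, 4.05 and 3.88 against 3.38), but its second, dimmer probe set had a mean there of 3.06 against 3.09, so the probe sets disagreed.

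AKR/J departed for 5 members in both directions. C1qa (7.86, 6.74, 7.04 and 7.68) lay 0.53 below its line and Mrc1 (6.33, 5.91, 6.38 and 6.89) 0.68 below, while Lcp1 lay 0.83, Laptm5 0.75 and Cyba 0.50 above. The high values came from 2 of the 4 mice. Lcp1 was 9.41 and 8.14 in replicates 1 and 4 and 6.50 and 6.16 in the others, and the B lymphocyte list was 6.47 and 5.05 in replicates 1 and 4 against 3.92 and 3.56. Coro1a in CXB7/ByJ (9.07, 7.03, 7.90 and 5.44, 1.15 above the line) went with T lymphocyte levels of 5.76, 4.14, 4.28 and 3.20 in the same mice. Itgam, the Mac-1 chain also carried by neutrophils, was high in 1 mouse each of BXD14/TyJ (5.41) and SJL/J (5.49), whose neutrophil lists were 3.99 and 3.60 against a median array of 3.15. The same arrays had B lymphocyte lists of 5.20 and 4.67 (median array 4.0) and means of the members of 7.38 and 6.89. BUB/BnJ replicates 2 and 4 had neutrophil lists of 3.79 and 4.09 with Itgam at only 3.08 and 3.31. In C58/J Itgam was 5.11, 2.84, 4.69 and 4.11, with neutrophil lists of 3.33, 3.11, 3.57 and 3.0. The part of these cells in the departures was not tested.

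The progenitor strains of the recombinant panels were compared with C57BL/6J, and all 4 comparisons share its 6 arrays. C57BL/6J was 76th from the lowest of 95 strains for the mean of the members (6.35, or 6.17 without replicate 1, median strain 6.15). Its smooth muscle list had a median of 7.37, where that of all arrays was 8.52. A difference can thus lie on the side of C57BL/6J as well as on that of the other strain. The largest set of changes was in A/J, where 12 of the 32 members were lower and none higher (limma, adjusted p below 0.05 over 45141 probe sets), against 3.61% of all probe sets lower. In the fit on probe sets above the median level 15 members and 8.86% of all were lower. The 3 resident receptors and the 3 C1q chains all passed. Folr2 was 4.62, 4.68 and 4.66 in A/J and 7.37, 6.50, 5.96, 5.45, 6.05 and 6.24 in C57BL/6J, a difference of -1.61 ± 0.29 (SE), or 3.05-fold lower (adjusted p = 2.03e-05). Every A/J array lay below every C57BL/6J array. C1qc was 6.53, 6.72 and 6.59 against 8.62, 7.78, 7.43, 7.37, 7.47 and 7.68, again without overlap (-1.11 ± 0.24 (SE), adjusted p = 0.0008). Cd163 (-1.26 ± 0.27 (SE), adjusted p = 0.000678), C1qb (-1.17), C1qa (-0.97) and Mrc1 (-0.80) were lower too. Of the 5 Fc receptor members 4 passed, namely Tyrobp (-1.17), Fcgr3 (-1.16), Fcer1g (-1.09) and Fcgr2b (-1.04), and of the 8 lineage members Adgre1 (-1.24 ± 0.32 (SE), adjusted p = 0.00583) and Csf1r (-0.63, adjusted p = 0.0450).

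Over the 32 members, 31 differences were below 0 in A/J, and the median was -0.78 where that of all probe sets was -0.01. None of the 7 leukocyte-wide members passed (median -0.55, from -0.98 to -0.10), nor did the 4 pattern recognition members (median -0.84) or the 2 oxidase subunits (-1.14 for Cybb and -0.58 for Cyba). At an unadjusted p below 0.05, 24 of the 32 passed, against 16.9% of all probe sets. Without A/J replicate 3 the adjusted count was 8, and without C57BL/6J replicate 1 it was again 8. In the latter setting the members lower in A/J were Adgre1, C1qa, C1qb, C1qc, Fcgr2b, Fcgr3, Cd163 and Folr2. Folr2 then differed by -1.39 (adjusted p = 0.000703) and Cd163 by -1.08 (adjusted p = 0.00847), while Fcer1g (adjusted p = 0.053), Mrc1 (0.104), Tyrobp (0.114) and Csf1r (0.192) missed the threshold. Of the 20 other resident macrophage genes, 11 were lower in A/J and none higher, and 9 without that array. The same list had 12 lower in C3H/HeJ and 7 in BALB/cJ, but 2 and 3 without C57BL/6J replicate 1. Those lower in A/J include Clec10a (-1.80, adjusted p = 1.67e-07), F13a1 (-0.96, adjusted p = 0.000762) and Igf1 (-0.96, adjusted p = 0.0069) by limma. The mean of the smooth muscle markers over 10 genes was 8.70 to 9.09 in A/J, above the 6.36 to 8.49 of C57BL/6J, with 1 of the 10 genes higher by the test (none without C57BL/6J replicate 1). The part of tissue composition in the members' differences was not tested.

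**Figure D5:**
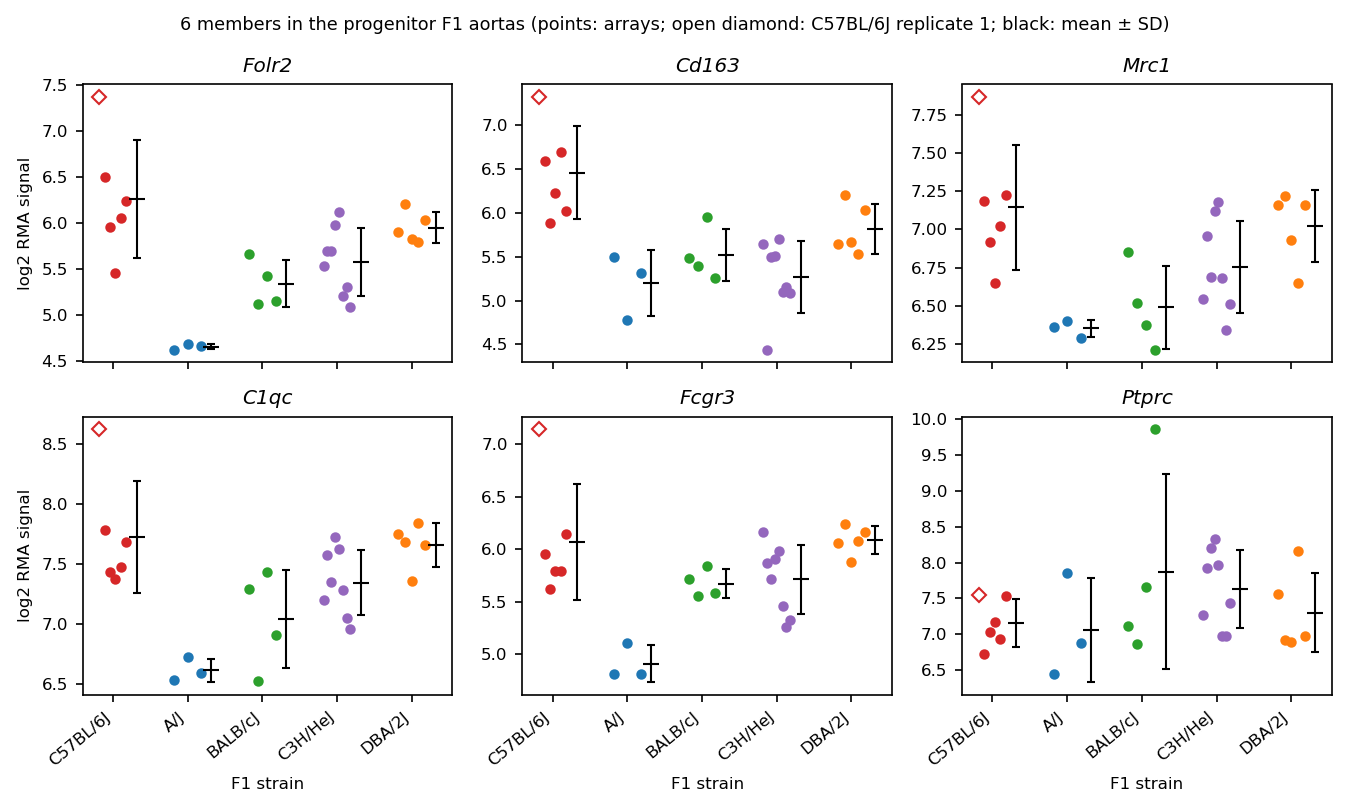
Log2 RMA signal (y axes) of 6 members in the F1 of C57BL/6J (6 arrays), DBA/2J (5), C3H/HeJ (8), BALB/cJ (4) and A/J (3), with arrays as points, C57BL/6J replicate 1 as an open diamond and mean ± SD in black. Folr2 in A/J (4.62 to 4.68) lies below all other arrays shown, and Ptprc reaches 9.86 in 1 BALB/cJ array.

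In BALB/cJ 4 members were lower and none higher, against 4.67% of all probe sets lower. Cd163 was 5.48, 5.39, 5.95 and 5.26 in BALB/cJ against 7.32, 6.59, 5.88, 6.23, 6.70 and 6.02 in C57BL/6J (-0.93 ± 0.25 (SE), adjusted p = 0.00838), with an overlap of 1 array on each side. Folr2 (-0.93, adjusted p = 0.0166), Mrc1 (-0.66, adjusted p = 0.0357) and C1qc (-0.69, adjusted p = 0.0399) were the others, so all 3 resident receptors passed and none of the 7 leukocyte-wide members did. None of the 4 passed without C57BL/6J replicate 1 (limma, 5 of 32 members at an unadjusted p below 0.05, against 17.6% of all probe sets), when Cd163 differed by -0.76 (adjusted p = 0.0606). The count was 0 also without BALB/cJ replicate 4, which is high in lymphocyte markers, 1 without BALB/cJ replicate 2 and 2 without C57BL/6J replicate 2. The smooth muscle list was 8.79 to 9.32 in BALB/cJ, above all 6 C57BL/6J arrays.

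In C3H/HeJ 3 members were lower and none higher, against 5.0% of all probe sets lower. Among the 5 progenitors the mean of Cd163 in C3H/HeJ was next to that of A/J. Its 8 C3H/HeJ arrays ran from 4.44 to 5.70, with a mean of 5.27 ± 0.413 (SD, n = 8), below all 6 C57BL/6J arrays (5.88 to 7.32). The difference was -1.19 ± 0.21 (SE), or 2.28-fold lower (adjusted p = 5.18e-06), and -1.02 without C57BL/6J replicate 1 (adjusted p = 0.000465). Folr2 (-0.69, adjusted p = 0.0311) and Cd14 (-0.61, adjusted p = 0.0359) overlapped between the groups and missed the threshold without C57BL/6J replicate 1 (adjusted p = 0.283 and 0.260). Fcgr2b narrowly missed it on the chosen probe set (-0.54, adjusted p = 0.0503), while its other 3 gave adjusted p-values of 0.0824, 0.0155 and 0.0221. The count was 1 without any of C57BL/6J replicates 1 and 2 and C3H/HeJ replicates 6, 7 and 8, each left out alone, and 5 without C57BL/6J replicate 5. The smooth muscle list was 8.12 to 9.32 in C3H/HeJ, with 8 of its 10 genes higher.

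In DBA/2J no member passed limma's test, against 3.69% of all probe sets called in either direction, with 1 member at an unadjusted p below 0.05, against 14.4% of all probe sets. The largest differences were Cd163 (-0.64 ± 0.23 (SE), adjusted p = 0.115), Cybb (0.47, adjusted p = 0.563) and Coro1a (0.46, adjusted p = 0.702). Cd163 was 5.65, 6.20, 5.67, 5.53 and 6.03 in DBA/2J, overlapping with C57BL/6J. With array weights 1 member passed, where 14.2% of all probe sets did. Whether the differences from C57BL/6J are themselves unlike between the 4 strains was not tested.

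The recombinant inbred strains can be read beside their parents, as a description. All 19 AXB/BXA strains lay above A/J for the mean of the members (5.87 to 6.86 against 5.57), and also for Folr2 (5.07 to 6.67 against 4.65), Cd163 (5.64 to 6.48 against 5.20), C1qb (6.96 to 8.16 against 6.58) and C1qc (6.85 to 8.17 against 6.61). A/J, a mean of 3 arrays, was the lowest of all strains tested for the mean of the members, Folr2, Cd163 and C1qc. Any other strain lies above it there, so these positions follow from that rank and show nothing about inheritance. For C1qb the lowest strain was CE/J. For Folr2, 17 of the 19 lay between A/J and C57BL/6J, with a C57BL/6J mean of 6.26 or, without replicate 1, of 6.04. Only the C57BL/6J side of that interval could be missed. BXA7/PgnJ, the highest strain of all for 13 members, is from this set. For Cd163, 7 of 8 CXB strains (6 without that array) and all 4 BXH strains lay between their parents. In the BXD set, 26 of 33 strains lay below both DBA/2J (6.37) and C57BL/6J (6.35) for the mean of the members, but without C57BL/6J replicate 1, when the C57BL/6J mean was 6.17, 17 lay below both and 9 between. The set ran from BXD18/TyJ (5.69) to BXD66/RwwJ (6.71).

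Strain families were compared by limma's F test on 95 strain means grouped into 5 families. There 3 of the 32 members passed, against 7.47% of all probe sets and 15.3% in the fit on those above the median level, and 8 had an unadjusted p below 0.05, against 22.1% of all. Both counts are near the background. Fcgr2b (adjusted p = 0.00657) had means of 6.69 ± 0.424 (SD, n = 31) in classical strains, 7.05 ± 0.252 (SD, n = 33) in BXD, 6.90 ± 0.350 (SD, n = 19) in AXB/BXA, 7.17 ± 0.293 (SD, n = 8) in CXB and 7.14 ± 0.133 (SD, n = 4) in BXH. C1qb (adjusted p = 0.0358) ran from 7.23 in classical strains to 7.82 in BXH, and Ly86 (adjusted p = 0.0458) from 6.42 to 6.91. The families overlapped for all 3, and recombinant strains of a family are related, which this test does not model. Over the 32 members, classical strains had the lowest mean for 23, and BXH, with 4 strains, had the highest for 22 and CXB for 9. The members varied together, so these counts are not independent, and the share over all probe sets is not given here. With strain means weighted by their number of arrays, 1 member passed, against 8.2% of all probe sets.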

How the data were processed

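Total RNA of 366 aortas was hybridised to Affymetrix arrays, which the labels name HT_MG-430A and the study's methods HT-MG_430 PM. The deposited values are log2 signals, which the authors made with GCOS and RMA per the labels (versions not given in the sources used here). They run from 1.63 to 13.7, with array medians from 3.17 to 3.4, and no 2 arrays were identical. RMA places all arrays on 1 distribution, so a level is relative to the other genes of its array. The number of arrays limits the precision.

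Of 45141 probe sets, 28898 had 1 gene symbol in the platform annotation, 551 several and 15692 none. Strains came from the labels. Strains with 1 array (6) were left out of the fits, and 87 strains had at least 3. limma 3.58.1 in R 4.3.3 gave moderated F tests and contrasts on all strains together, with p-values corrected over the 45141 probe sets by the Benjamini-Hochberg method and called at 0.05. These scripts were tested on simulated data. Python 3.11.15 with pandas 2.3.3, numpy 2.4.6 and matplotlib 3.10.9 gave correlations, shares of variance and plots. The text names every member, its lowest and highest strain, the 10 genes most like the members across and within strains, and up to 4 genes of each other list by share of variance among strains. The members and lists were chosen with earlier results of these data known. Alternatives were array weights, array centring, averaging probe sets, filters on strains and probe sets, and leaving out replicates or arrays high in hepatocyte or (chosen after seeing the data) lymphocyte markers.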

Additional observations from a re-analysis of the deposited data

Results flagged for a closer look

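In groups of 4 to 10 arrays, the highest or lowest array was set against the others by Dixon's gap ratio at the 95% level, which flags about 1 group in 20 by chance. The mean of the members was flagged in 8 of 75 strains, and single members in 5 of 60 groups. The arrays above the rest of their strain were C57BL/6J replicate 1 (7.20, others 5.99 to 6.37), SJL/J replicate 1 (6.89, others 5.95 to 6.02), NZB/BlNJ replicate 2 (6.87, others 6.08 to 6.15) and BXA14/PgnJ replicate 4 (6.43, others 5.64 to 5.74). Those below were BXA7/PgnJ replicate 5 (6.53, others 6.90 to 7.0), CXB6/ByJ replicate 4 (5.79, others 6.48 to 6.62), CXB1/ByJ replicate 2 (5.58, others 5.98 to 6.04) and BXD55/RwwJ replicate 4 (6.03, others 6.17 to 6.19).

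C57BL/6J replicate 1 was also flagged for C1qb (8.89, others 7.43 to 7.74), C1qc (8.62, others 7.37 to 7.78), Fcer1g (7.30, others 5.81 to 6.35) and Fcgr3 (7.14, others 5.62 to 6.14). Its smooth muscle list was 6.36, where the other 5 arrays had 6.41 to 8.49. Lists above those of the other 5 included erythroid (7.24, others 5.92 to 6.26) and neutrophil markers (4.05, others 2.89 to 3.51). Nerve (4.91, others 3.27 to 3.96) and T lymphocyte markers (3.80, others 3.20 to 3.51) were above too. The B lymphocyte, endothelial, fibroblast and striated muscle lists lay within the range of the others. Fcer1g in DBA/2J replicate 3 was 5.43, below the 6.41 to 6.60 of the other 4.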

How the results depend on the processing

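No difference called for a member changed direction under the alternatives run, but differences not called did. Without C57BL/6J replicate 1 the median over the members went from -0.14 to 0.01 in C3H/HeJ, where members below 0 went from 25 to 16, and members below 0 went from 23 to 16 in BALB/cJ and from 13 to 5 in DBA/2J. Leaving out replicates gave 27 to 31 members that differed among strains, 8 to 14 between A/J and C57BL/6J, 0 to 5 for BALB/cJ, 1 to 5 for C3H/HeJ and 0 for DBA/2J, and the arrays that moved a progenitor count by more than 1.5 times are named in the report. The 27 came without replicates numbered 1 or numbered 3, the 14 without C57BL/6J replicate 3 or 5, and the 5 for BALB/cJ without its replicate 3 or C57BL/6J replicate 5. With array weights the counts were 0 for BALB/cJ, 1 for C3H/HeJ and 1 for DBA/2J, where 9.16%, 12.4% and 14.2% of all probe sets were called. Without the 7 arrays high in lymphocyte markers (chosen after seeing the data) BALB/cJ had 0, where 1 of its own arrays was left out. With strain means weighted by arrays, 1 member differed among families, against 8.2% of all probe sets. The cause of these shifts was not tested. Of the correlations with other lists, 9 moved beyond their spread. Within strains, averaging all probe sets of a gene gave 0.466 for the colony stimulating factor axis, 0.673 for monocyte recruitment and 0.901 for other phagocyte receptors. Without the arrays high in lymphocyte markers the values within strains were 0.797 for other resident macrophage genes, 0.488 for T lymphocytes, 0.614 for B lymphocytes and 0.294 for fibroblasts. Across strains, centring the arrays gave 0.226 for adipocytes, and leaving out arrays high in hepatocyte markers gave 0.196 for hepatocytes. No paired analysis was possible because replicate numbers only name the mice of a strain. Members near the median signal of all probe sets (Spi1, Fcgr1, Cd180 and Itgam) are measured least well.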
